A study of Mus musculus with 6 samples.

Results

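The Myc network genes Myc, Mycn, Mycl, Max, Mxd1, Mxd3, Mxi1, Mnt and Mga were measured by RNA-seq in murine embryonic stem cells (ESCs) in which SMC complexes had been depleted. These 9 genes of 21409 were taken by name, each RefSeq accession was assigned to its gene, and the accession with the most counts over all libraries stood for the gene. V6.5 ESCs, a mouse line kept on fibroblast feeders and plated off them before infection, received lentiviral shRNAs and were selected in puromycin at 0.5 and then 1 µg/ml, 48 hours each, starting 24 hours after infection. The control hairpin targeted GFP and gave 1 library, a hairpin against SMC1, a cohesin subunit, gave 1, and there were 2 libraries for CAPH2, a condensin II subunit, and 2 for SMC2, which is shared by the condensin complexes. Libraries of the same target carried different hairpins, so their spread includes the hairpin as well as the culture, and nothing in the labels says how many cultures stood behind a library. The cells of all 6 libraries carried an integrated shRNA vector, and 1.42 µl of diluted ERCC synthetic RNAs was added to RNA from 652000 cells of each.

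MYC, MYCN and MYCL are basic helix-loop-helix leucine zipper proteins that bind DNA only as partners of MAX, preferably at the E-box CACGTG, and activate genes of ribosome production, nucleotide synthesis and growth. MXD1, MXD3, MXI1, MNT and MGA also bind MAX and the E-box. The MXD proteins and MNT recruit the SIN3 corepressor and oppose MYC, and MGA brings MAX into a Polycomb-related complex, PRC1.6. In ESCs the network is known for its part in self-renewal, and Mycn and Myc can largely stand in for each other there.

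The windows of 250 bases before the RefSeq start (mm9, NCBI build 37) are shown for Myc and Mxi1, because these were the members called against GFP with both condensin targets. Neither window overlaps a GENCODE exon, and capitals would mark CACGTG, whose letters read the same on both strands.
Myc, chr15:61816646-61816895, plus strand: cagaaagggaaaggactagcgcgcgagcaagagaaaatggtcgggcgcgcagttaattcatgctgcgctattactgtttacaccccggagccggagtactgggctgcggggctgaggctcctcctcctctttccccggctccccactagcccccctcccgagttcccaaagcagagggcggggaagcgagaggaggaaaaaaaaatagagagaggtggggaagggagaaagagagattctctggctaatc
Mxi1, chr19:53403653-53403902, plus strand: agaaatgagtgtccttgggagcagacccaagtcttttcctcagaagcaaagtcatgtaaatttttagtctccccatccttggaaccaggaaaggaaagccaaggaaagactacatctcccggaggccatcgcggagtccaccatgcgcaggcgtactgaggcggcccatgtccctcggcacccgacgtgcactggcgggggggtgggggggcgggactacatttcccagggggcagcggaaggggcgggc
Neither holds CACGTG. Of the 9 members 1 held it in this window, and that was Mnt. The share over all 21409 windows was 6.894%, and among the 12381 expressed genes (an RPKM with GFP of 1 or more) it was 8.658%. The Mnt site is shown with its flanking bases and lies 123 bases before the start.
Mnt, chr11:74644291-74644320, plus strand: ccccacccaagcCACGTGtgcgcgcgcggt

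The libraries were deep enough for every member to be counted. The RPKM (read counts divided by exon length and library reads) rested on 18823000 to 23325000 reads a library, and the least abundant member, Mxd1, had 171 to 255 counts. The targeted transcripts were lower where they should be by label. The RPKM of Smc1a was 36.1 with GFP and 14.4 with SMC1, that of Ncaph2 was 80.2 with GFP and 16.9 and 27.9 with CAPH2, and that of Smc2 was 26.6 with GFP and 18.8 and 19.1 with SMC2. These transcripts also differed from GFP in libraries of the other targets. Ncaph2 was lower, at 54.0 with SMC1 and 63.9 and 64.9 with SMC2. Smc2 was higher, at 41.9 with SMC1 and 42.3 and 40.6 with CAPH2. Smc1a was higher, at 46.9 and 46.2 with CAPH2 and 45.6 and 41.7 with SMC2. The SMC1 library stood apart. The summed RPKM of 8 ESC markers was 1215 there and 2253 to 2693 in the other libraries, and Esrrb, which encodes a self-renewal factor, was 21.5 with SMC1 and 158 to 209.6 elsewhere. The summed RPKM of 10 fibroblast markers was 55.9 with GFP, 118 with SMC1, 88.4 and 62.2 with CAPH2 and 69.1 and 62.2 with SMC2, while Dcn and Lum of that list stayed under 1 throughout. Col1a1 alone was 20.8 with GFP, 39.4 with SMC1, 36.1 and 22.8 with CAPH2 and 25.3 and 22.5 with SMC2. Thy1 was 8.52 with GFP, 10.1 with SMC1 and lower with the condensin hairpins, at 5.36 to 7.04. Of 7 markers with an RPKM of at least 1 with GFP, 2 were below GFP with CAPH2, 2 with SMC2 and 0 with SMC1. For 7 primitive endoderm markers the sum was 6.70 with GFP and 12.3 with SMC1, and Gata6, Sox17, Sox7, Foxa2 and Pdgfra were under 1 in all libraries. The part of these differences in the results below was not tested, and in bulk RNA fewer cells of a type cannot be told apart from less RNA per cell.

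Mycn was by far the most abundant of the members and Mxd1 the least. In the GFP library the order of RPKM was Mycn at 179, Max at 39.2, Mnt at 22.8, Mga at 18.0, Mycl at 16.9, Mxd3 at 15.1, Mxi1 at 13.4, Myc at 10.2 and Mxd1 at 1.88. Neighbours whose exact Poisson intervals overlapped were Mga and Mycl, Mycl and Mxd3, and Mxd3 and Mxi1. These intervals cover counting error only, as do all intervals on counts here. Mycn alone gave 86.9% of the summed RPKM of the 3 MYC genes in that library.

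**Figure D1:**
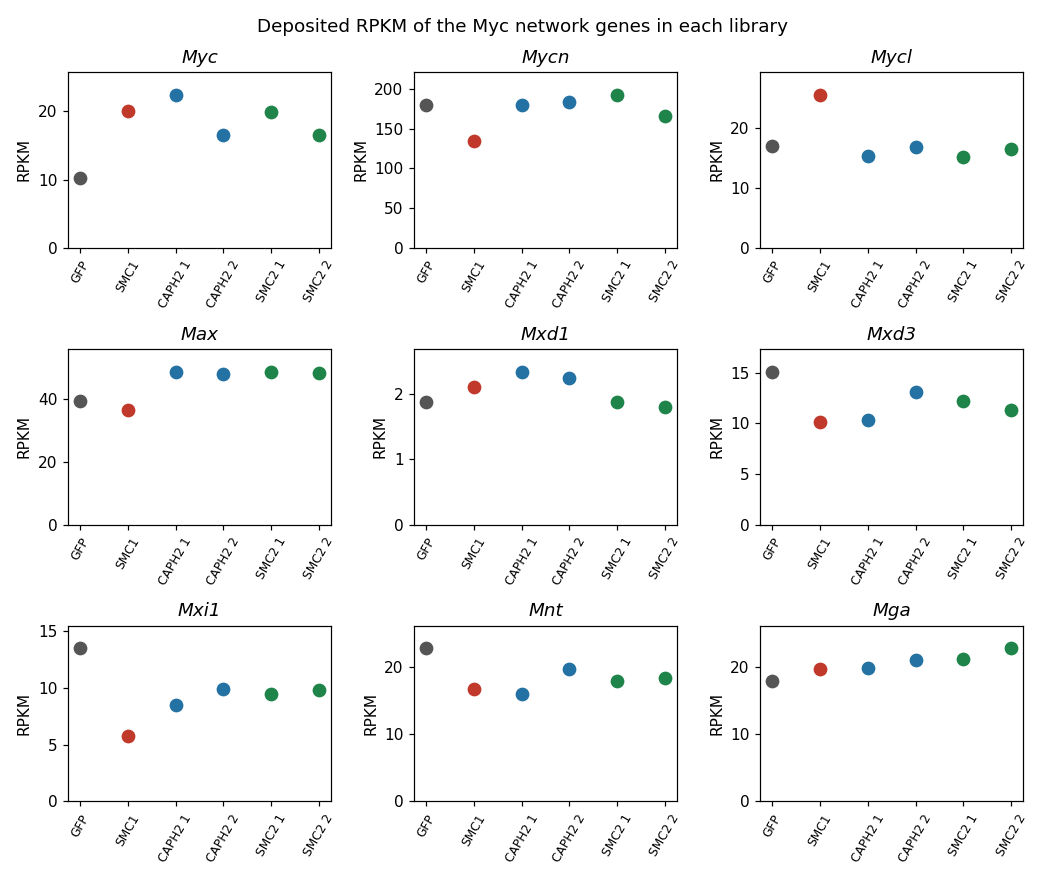
RPKM (vertical axis, linear from 0) of each Myc network gene in each library (horizontal axis), 1 point per library. Myc is at 10.2 with GFP and between 16.6 and 22.4 in the others, and Mycl is at 25.5 with SMC1 and between 15.2 and 16.9 elsewhere.

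Myc, which encodes the MYC protein itself, lies on the plus strand of chromosome 15 from 61816896 to 61821916 (NM_010849, mm9). Its RPKM was 10.2 with GFP, 20.1 with SMC1, 22.4 and 16.6 with CAPH2 and 19.9 and 16.6 with SMC2, from 526, 928, 1256, 748, 1073 and 811 counts. The GFP library was the lowest of the 6, and the SMC1 value lay within the range of the 4 condensin libraries. Against GFP the level was 197% with SMC1 (95% exact binomial interval of the count ratio 177 to 220.2), 220.3% with CAPH2 hairpin 1 (199 to 244) and 163% with hairpin 2 (145 to 182), and 195% and 163% with the SMC2 hairpins (175 to 217 and 145 to 182). The libraries with the highest Myc, CAPH2 hairpin 1 and SMC1, were also those with the highest summed fibroblast markers, and the part of other cells in the Myc level was not tested. Thy1 of that list was lower with CAPH2 hairpin 1 than with GFP (RPKM 6.60 against 8.52).

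Mycn, the paralog that dominates in ESCs, lies on the minus strand of chromosome 12 from 12942899 to 12948642 (NM_008709). Its RPKM was 179 with GFP, 135 with SMC1, 179 and 184 with CAPH2 and 193 and 166 with SMC2. The SMC1 library was the lowest, at 75.3% of GFP (73.0 to 77.7). Mycl (NM_008506, chromosome 4, 122673342 to 122679723, plus strand), the third MYC gene, had an RPKM of 16.9 with GFP, 25.5 with SMC1, 15.4 and 16.9 with CAPH2 and 15.2 and 16.5 with SMC2. The SMC1 library was the highest, at 151% of GFP (140.3 to 162).

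The make-up of the MYC family differed between libraries. Myc gave 4.93% of the summed RPKM of Myc, Mycn and Mycl with GFP, 11.1% with SMC1, 10.3% and 7.63% with CAPH2 and 8.71% and 8.31% with SMC2. The ratio of Mycn to Myc RPKM was 17.6 with GFP and from 6.72 with SMC1 to 11.1 with CAPH2 hairpin 2 in the others. Mycn gave most of the family's RPKM in every library, with 74.7% in the SMC1 library and 82.6% to 86.9% in the rest. The summed RPKM itself was 207 with GFP, 181 with SMC1, 217 and 217 with CAPH2 and 228 and 199 with SMC2, which was below GFP with SMC1 and 1 SMC2 hairpin and above it in the other libraries. Shares within a library do not depend on how libraries were scaled to each other.

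**Figure D2:**
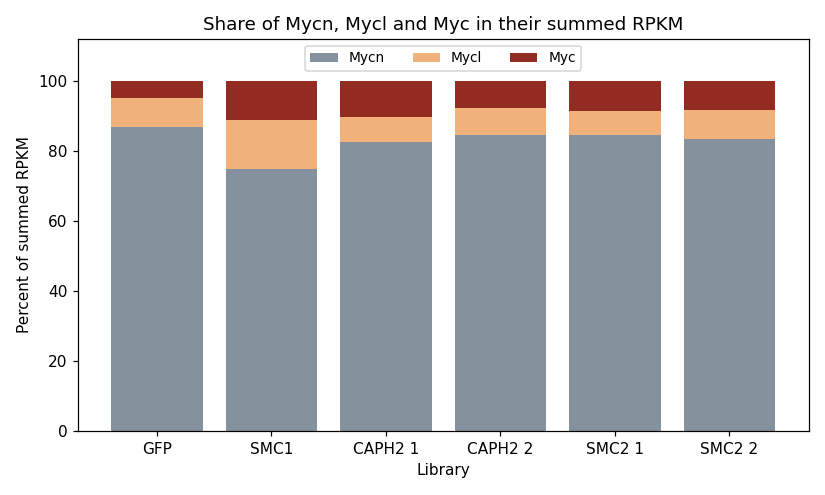
Share of Mycn, Mycl and Myc in their summed RPKM (vertical axis, percent, from 0 to 100) for each library. Mycn takes 86.9% in the GFP library and 74.7% with SMC1, where Mycl takes 14.1% and Myc 11.1%.

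Max, the shared partner of all the other members, lies on the minus strand of chromosome 12 from 78038256 to 78063235 (NM_008558). Its RPKM was 39.2 with GFP, 36.4 with SMC1, 48.7 and 47.9 with CAPH2 and 48.6 and 48.4 with SMC2. The 4 condensin libraries agreed closely, at 48.4 ± 0.371 (SD, n = 4), and were all above GFP and SMC1. The 2 RefSeq rows of Max share their exons and gave nearly the same counts.

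Among the members that oppose MYC, Mxi1, Mnt and Mxd3 were highest in the GFP library. Mxi1 (NM_010847, chromosome 19, 53403903 to 53450300, plus strand) had an RPKM of 13.4 with GFP, 5.74 with SMC1, 8.49 and 9.91 with CAPH2 and 9.43 and 9.80 with SMC2. The SMC1 library was the lowest, at 42.7% of GFP (38.6 to 47.1), and the condensin libraries lay between it and GFP, at 63.1% to 73.7%. All 3 RefSeq rows of Mxi1 gave this order, with 42.7%, 43.8% and 43.6% of GFP in the SMC1 library. Exons of Mxi1 share 194 bases with Gm10197 on the other strand, and the library kit does not mark strand, so reads in those bases cannot be assigned.

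Mnt (NM_010813, chromosome 11, 74644426 to 74659227, plus strand) encodes the MAX partner that most cells express regardless of growth. Its RPKM was 22.8 with GFP, 16.8 with SMC1, 16.0 and 19.7 with CAPH2 and 18.0 and 18.4 with SMC2, so the SMC1 value lay within the condensin range. Mxd3 (NM_016662, chromosome 13, 55426529 to 55431091, minus strand), the MXD gene known from cycling cells, had an RPKM of 15.1, 10.1, 10.3, 13.0, 12.2 and 11.3 in the same order. It shares 104 exonic bases with Prelid1 on the other strand. Mxd1 (NM_010751, chromosome 6, 86597039 to 86619153, minus strand), which usually rises with differentiation, had an RPKM of 1.88 with GFP, 2.11 with SMC1, 2.35 and 2.25 with CAPH2 and 1.89 and 1.80 with SMC2. Its SMC1 value was not distinguishable from GFP at this depth (111.9% of GFP, 91.0 to 138).

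Mga, which encodes the large MAX partner of PRC1.6 (NM_013720, chromosome 2, 119722964 to 119795317, plus strand), had an RPKM of 18.0 with GFP, 19.7 with SMC1, 19.9 and 21.1 with CAPH2 and 21.2 and 22.8 with SMC2. The GFP library was the lowest. Taken by place, the GFP library was the lowest of the 6 for 2 of the 9 members (Myc and Mga), against 26.5% of the 12381 expressed genes, and the highest for 3 (Mxi1, Mnt and Mxd3), against 32.5%. These shares are near the background, so the order of a member's libraries by itself says little.

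The ratio of the summed RPKM of the 3 MYC genes to that of Mxd1, Mxd3, Mxi1, Mnt and Mga was 2.90 with GFP, 3.32 with SMC1, 3.80 and 3.29 with CAPH2 and 3.63 and 3.11 with SMC2. It was lowest in the GFP library. These MXD genes, Mnt and Mga summed to an RPKM of 71.2 there, 54.4 with SMC1, 57.1 and 66.0 with CAPH2 and 62.7 and 64.1 with SMC2. Mxd4, an MXD gene outside the members, is not in these sums. Its RPKM was 3.15 with GFP, 9.97 with SMC1 and 3.82 to 5.96 with condensin hairpins. Adding it would bring the ratios with GFP and with SMC1 closer together.

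Cohesin depletion was compared with the control by the RPKM ratio of the SMC1 and GFP libraries, which has no replicate and therefore no test. Relative to GFP, Myc and Mycl were higher and Mxi1 lower in the SMC1 library by at least 1.5 fold, and Mycn, Mnt and Mxd3 were lower by less. The log2 RPKM changes were 0.98 for Myc, 0.59 for Mycl, -1.23 for Mxi1, -0.41 for Mycn, -0.44 for Mnt and -0.58 for Mxd3. Max, Mga and Mxd1 had changes of -0.11, 0.13 and 0.16. A fold of 1.5 was passed by 3 of 9 members, and by 32.8% of the 12381 expressed genes (17.6% lower and 15.2% higher). Mycl lay just inside this fold and Mxd3 just outside, and with TMM or DESeq2 size factors they changed places. Scaled to the ERCC RNAs, all genes moved up by 0.86 in the SMC1 library, so that Mycn, Max, Mnt and Mxd3 turned to 0.46, 0.76, 0.42 and 0.28 while Mxi1 stayed lower, at -0.36. The RPKM changes are thus changes relative to the other transcripts of the library.

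Condensin depletion was compared with the control with CAPH2 and with SMC2. Relative to the other transcripts, Myc was higher and Mxi1 lower with both targets (scaled to the ERCC RNAs, Mxi1 turned to 0.12 with SMC2), and no other member passed the test. The mean log2 RPKM change of Myc was 0.94 with CAPH2 and 0.84 with SMC2, and it passed 1.5 fold as the only 1 of 9 members in each. With CAPH2 7.14% of expressed genes passed it (4.04% lower, 3.1% higher), and with SMC2 6.11% (3.8% lower, 2.32% higher). The change of Mxi1 was -0.55 and -0.48. Mycn stayed near GFP, at 0.016 and 0.0010, as did Mycl at -0.07 and -0.096.

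The edgeR quasi-likelihood test with Benjamini-Hochberg adjustment over 14843 genes used all 6 libraries, with the GFP library assumed to vary like the hairpin pairs. With CAPH2 2 of 9 members were called (background 8.17%, with 3.44% lower and 4.74% higher). Myc was higher by a log2 of 0.94 (SE 0.18, adjusted p = 0.0230) and Mxi1 lower by -0.55 (SE 0.11, adjusted p = 0.0268). With SMC2 the same 2 were called (background 6.84%, with 2.69% lower and 4.14% higher), Myc at 0.85 (SE 0.18, adjusted p = 0.0292) and Mxi1 at -0.48 (SE 0.11, adjusted p = 0.0375). Max missed the threshold at 0.30 with CAPH2 (adjusted p = 0.0591) and 0.32 with SMC2 (adjusted p = 0.0568). Mnt was at -0.35 and -0.32 (adjusted p = 0.0906 and 0.128), Mga at 0.19 and 0.30 (adjusted p = 0.172 and 0.0609) and Mxd3 at -0.37 and -0.35 (adjusted p = 0.171 and 0.203). These comparisons share the GFP library, so their likeness is not independent support.

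The calls for Myc and Mxi1 rest on few libraries. In the CAPH2 comparison both lost the call without SMC2 replicate 1 (edgeR adjusted p = 0.0585 for Myc and 0.0670 for Mxi1), although that library is not part of the contrast and the log2 changes stayed at 0.94 and -0.55. Calls over all genes then fell from 1213 to 5. In the SMC2 comparison both lost it without SMC2 replicate 1 (0.131 and 0.169) and without SMC2 replicate 2 (0.0520 and 0.116). Without CAPH2 replicate 2 the number of members called rose to 5 with either target, and without CAPH2 replicate 1 to 5 with SMC2, since Max, Mnt, Mxd3 or Mga then passed. With ERCC scaling no member was called. The log2 shift of this scaling relative to GFP was 0.63 and -0.047 for CAPH2 hairpins 1 and 2. For the SMC2 hairpins it was 0.64 and 0.57. The part of the unlike CAPH2 shifts in the lost calls was not tested. In simulated counts of this design the test made more false calls than its threshold allows.

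**Figure D3:**
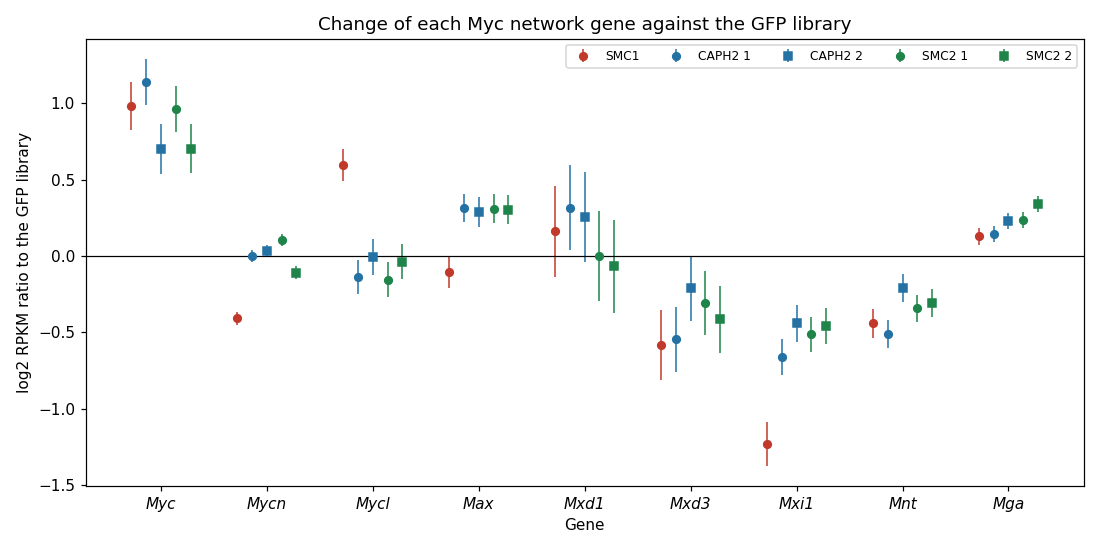
Log2 RPKM ratio to the GFP library (vertical axis) of each Myc network gene in each knockdown library, with 95% exact binomial intervals of the count ratio as bars. Myc lies above 0 and Mxi1 below 0 in all 5 knockdown libraries (with ERCC scaling Mxi1 is at 0.12 for SMC2), while Mycn is at -0.41 with SMC1 and between -0.11 and 0.10 with the condensin hairpins.

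The cohesin and condensin knockdowns were compared directly, which does not use the GFP library as reference. Mycl was higher, and Mycn, Max and Mxi1 were lower, with SMC1 than with condensin hairpins. Myc did not differ beyond its error. Mycl had an RPKM of 25.5 with SMC1 against 16.0 ± 0.823 (SD, n = 4 libraries), Mycn 135 against 180.5 ± 11.0, Max 36.4 against 48.4 ± 0.371 and Mxi1 5.74 against 9.41 ± 0.646. For none of these did the SMC1 value overlap the condensin libraries. In the edgeR quasi-likelihood test, with the single SMC1 library assumed to vary like the hairpin pairs, the log2 difference was 0.66 for Mycl (SE 0.0903, adjusted p = 0.000349), -0.44 for Mycn (SE 0.0905, adjusted p = 0.00376), -0.43 for Max (SE 0.0812, adjusted p = 0.00232) and -0.73 for Mxi1 (SE 0.115, adjusted p = 0.000814). These 4 of 9 members stand beside 43.4% of all genes tested, a share near the background. All 4 kept the call without any 1 of the condensin libraries and with DESeq2, and none did with ERCC scaling, under which the median log2 difference over all genes was 0.40.

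Myc differed by 0.07 (SE 0.157, adjusted p = 0.727, edgeR). The SMC1 library was above all 4 condensin libraries for 1 member (Mycl), against 36.9% of expressed genes, and below them for 5 (Mycn, Max, Mxd3, Mxi1 and Mga), against 41.7%. Mxd3, Mga and Mnt had differences of -0.23, -0.13 and -0.12 (edgeR adjusted p = 0.267, 0.207 and 0.426) and Mxd1 of 0.018 (adjusted p = 0.933). The ESC marker sum was also outside the condensin range in the SMC1 library (1215 against 2253 to 2402), and its part in these differences was not tested.

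**Figure D4:**
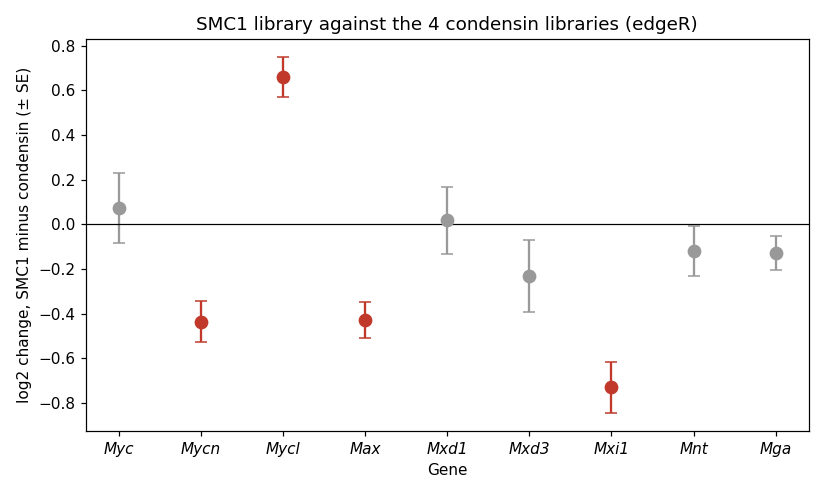
Log2 difference between the SMC1 library and the 4 condensin libraries (vertical axis, edgeR, bars are the SE) for each Myc network gene, with genes that passed an adjusted p of 0.05 in red. Mycl is at 0.66, Mycn at -0.44, Max at -0.43 and Mxi1 at -0.73, and Myc is at 0.07.

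The CAPH2 and SMC2 hairpins were compared with each other, where each side had 2 libraries. No member was called, and 3 genes of 14651 were (0.0205%, of which 0.00683% lower and 0.0137% higher, with 452 at an unadjusted p under 0.05, and 7 with DESeq2). Among the 3 genes called were the targeted transcripts Ncaph2 (log2 1.54, edgeR adjusted p = 0.0372) and Smc2 (log2 -1.12, edgeR adjusted p = 0.000237). The edgeR adjusted p was at least 0.998 for every member. Mxd1 had the largest difference among the members, with an RPKM of 2.35 and 2.25 for CAPH2 and 1.89 and 1.80 for SMC2 (log2 -0.31, SE 0.131, edgeR adjusted p = 0.998). Myc differed by -0.095 (SE 0.14).

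Genes whose profile over the 6 libraries was nearest to that of Myc were Zbtb33, Mir705, Ccp110, Dnaja1 and Vcan, at root mean square distances of 0.111, 0.111, 0.114, 0.115 and 0.127 between centred log2 RPKM values, among 11773 genes. Vcan, which encodes a matrix proteoglycan, had an RPKM of 2.99 with GFP, 5.92 with SMC1 and 4.27 to 6.72 with condensin hairpins. The nearest to Mycn were Gcsh, Use1, Cracr2b, Dtymk and Mcts2, at 0.0218 to 0.0331. Dtymk, a kinase of thymidine nucleotide synthesis, had an RPKM of 220.3 with GFP, 162 with SMC1 and 204 to 228 with condensin hairpins. The distances are a description, and nothing follows from them about shared control.

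The remaining transcription factors of the extended network were measured too. Mxd4, the fourth MXD gene, had an RPKM of 3.15 with GFP, 9.97 with SMC1, 5.96 and 4.01 with CAPH2 and 4.37 and 3.82 with SMC2, and it was higher with SMC1 than with condensin hairpins by a log2 of 1.12 (SE 0.207, adjusted p = 0.00204, edgeR). Mlx, the partner of the MondoA and ChREBP sensors, was lower (-0.30, adjusted p = 0.0262), and Mlxip, which encodes MondoA, was higher (0.28, adjusted p = 0.0191, edgeR). Mlxipl, which encodes ChREBP, was at -0.44 and not called (adjusted p = 0.125). Mxd4 and Mxi1, both MXD genes, thus stood on opposite sides of the condensin libraries in the SMC1 library.

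Partners of the network proteins were read in the comparison of SMC1 with condensin hairpins by edgeR, where 20.5% of all genes were called lower and 22.9% higher, with a median log2 of -0.0096. Scaled to the ERCC RNAs every difference moved up by about the 0.40 given above, so genes lower by less than that turn in sign. Of 12 PRC1.6 partners of MGA 6 were lower and 2 higher, with a median of -0.25 (by RPKM -0.23, and 0.19 with ERCC scaling). L3mbtl2 and Pcgf6, subunits particular to PRC1.6, were lower at -0.33 each, and E2f6, its E2F subunit, was higher at 0.63. Yaf2 was higher at 1.07 and Wdr5 lower at -0.58, and Rnf2, Cbx3 and Rybp were lower at -0.37, -0.51 and -0.25. Among corepressor genes of MXD and MNT, Sap30 was lower at -0.67, and Sin3b was at -0.11 and not called.

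Of 12 MYC cofactor genes 4 were lower and 2 higher (median -0.035). Ruvbl2 and Ruvbl1, chromatin remodelling ATPases that bind MYC, were lower at -0.55 and -0.39, as were the acetyltransferases Kat2a and Kat5 at -0.35 and -0.28. Mycbp2 was higher at 0.92 and Trrap, the scaffold of MYC-bound acetyltransferases, at 0.34. Ccnt1, the cyclin of the elongation kinase, had an RPKM of 13.7 with GFP, 23.6 with SMC1, 21.2 and 20.2 with CAPH2 and 22.9 and 23.7 with SMC2, and was called against GFP with CAPH2 (0.60, adjusted p = 0.0197) and SMC2 (0.78, adjusted p = 0.0123). Of 13 genes of MYC protein turnover 2 were lower and 3 higher (median 0.035). Usp28, which removes ubiquitin from MYC, fell by 0.84 on the log2 scale and the kinase gene Pim3 by 0.43. Huwe1, Gsk3b and Trpc4ap were higher at 0.30, 0.36 and 0.34. Protein levels were not analysed here.

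Genes that MYC is known to activate were lower with SMC1 than with condensin hairpins relative to the other transcripts, while scaled to the ERCC RNAs their median log2 difference turned from -0.18 by RPKM to 0.24. Of 60 such genes 30 were called lower and 2 higher, beside 20.5% and 22.9% of all genes tested. Below 0 lay 52 of the 60, beside 7568 of 14843 genes. The median log2 was -0.20 beside -0.0096 over all genes. All genes tested include genes with few counts, and no share over genes of like abundance was taken for SMC1 against condensin. Against GFP by RPKM, 9 of the 60 were lower and 2 higher by 1.5 fold with SMC1, beside 17.6% and 15.2% of expressed genes. The count of lower genes was thus not above the background. The median was -0.17, beside -0.034 over all expressed genes and -0.073 over genes with an RPKM of at least 5 with GFP. Of expressed genes past 1.5 fold with SMC1, 53.7% were lower, and 62.4% among those with an RPKM of at least 5. Shmt2, a mitochondrial enzyme of serine use, had an RPKM of 135 with GFP, 60.4 with SMC1, 91.9 and 114 with CAPH2 and 103 and 104 with SMC2, and its difference between SMC1 and condensin was -0.79 (SE 0.114, adjusted p = 0.000479, edgeR). The amino acid transporter Slc7a5, the exosome subunit Exosc5, the telomerase gene Tert, the prohibitin gene Phb and the glycolytic Hk2 were lower at -0.63, -0.60, -0.53, -0.52 and -0.42. Ribosome assembly genes such as Rrp9, Nip7, Pes1 and Tcof1 were lower at -0.44, -0.44, -0.42 and -0.36, and the nucleolar Npm1 and Ncl at -0.31 and -0.20. The exceptions were Ccnd2, a G1 cyclin, at 0.85 and Utp20 at 0.32. Ccnd2 had an RPKM of 7.03 with GFP, 20.5 with SMC1 and 10.5 to 11.6 with condensin hairpins.

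With condensin hairpins the same list lay around GFP. By edgeR 1 of 60 was lower and 6 higher with CAPH2, and 5 were higher and none of the 60 lower with SMC2, beside 3.44% lower and 4.74% higher of all genes with CAPH2 and 2.69% and 4.14% with SMC2, with medians of 0.00089 and -0.0027. Nop58, Mphosph10, Utp20 and Ccnd2 were higher with both, at 0.49 and 0.40, 0.48 and 0.46, 0.47 and 0.52, and 0.72 and 0.65. Ldha, the lactate dehydrogenase gene, was lower with CAPH2 (-0.48, adjusted p = 0.0456), with -0.44 (adjusted p = 0.0611) with SMC2. Myc itself was higher in these libraries, as given above.

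**Figure D5:**
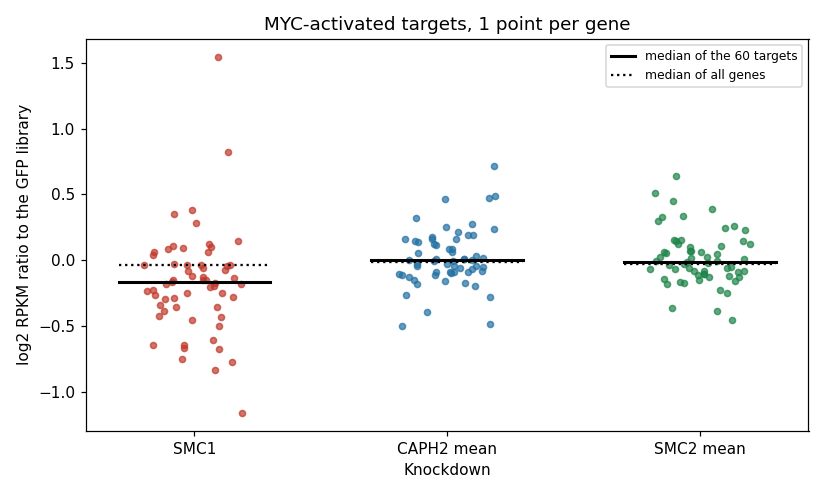
Log2 RPKM ratio to the GFP library (vertical axis) of 60 genes known to be activated by MYC, 1 point per gene, for SMC1 and for the means of the CAPH2 and SMC2 hairpins (horizontal axis), with the median of the list as a solid line and of all genes as a dotted line. The list median is -0.17 with SMC1 (0.70 with ERCC scaling) and close to 0 with CAPH2 and SMC2 (0.29 and 0.59 with ERCC scaling).

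Of 5 genes that MYC is known to repress, 2 were called higher and 1 lower with SMC1 than with condensin hairpins, beside 22.9% and 20.5% of all genes. Cdkn1a and Cdkn2b, inhibitors of cell cycle kinases, were higher, at 0.91 and 0.71 (edgeR adjusted p = 0.00235 and 0.0188). Ndrg1, a stress-responsive gene, was lower at -1.32 (adjusted p = 0.0300). Cdkn1b, also an inhibitor of cell cycle kinases, and Gadd45a were at -0.10 and -0.064 and not called (adjusted p = 0.627 and 0.563). Cdkn1a had an RPKM of 49.1 with GFP, 111 with SMC1, 82.2 and 51.3 with CAPH2 and 51.6 and 50.8 with SMC2. Ndrg1 was at 22.7 with GFP, 3.46 with SMC1, 5.49 and 12.3 with CAPH2 and 6.21 and 10.3 with SMC2, and differed widely between hairpins of a target.

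The E-box was looked for in the windows of the MYC-activated genes. CACGTG lay in the 250 bases before the start for 13 of the 60 (21.667%), beside 8.658% of expressed genes. Of the 13, 6 were called lower with SMC1 than with condensin hairpins, and of the 47 without it 24 were, with medians of -0.19 and -0.20. Against GFP by RPKM the medians with SMC1 were -0.25 with the site and -0.15 without it, and these differences were not tested. The sites of the 6 are shown on the strand of the gene, with up to 12 bases to each side (mm9) and CACGTG in capitals.
Srm, chr4:147965428-147965457, plus strand: agggcctctcccCACGTGgcccggcagccg
Exosc5, chr7:26444116-26444145, plus strand: taaacgctgagcCACGTGctagggccaact
Fbl, chr7:28954742-28954766, plus strand: ggcgctcctttcCACGTGcgaaagc
Slc7a5, chr8:124431734-124431763, minus strand: atcttaacgctcCACGTGctctaacagact
Eif5a, chr11:69734945-69734974, minus strand: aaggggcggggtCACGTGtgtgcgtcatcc
Eif4a1, chr11:69486097-69486126, minus strand: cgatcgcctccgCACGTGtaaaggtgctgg
Their differences were -0.39 for the spermidine synthase gene Srm, -0.60 for Exosc5, -0.26 for the nucleolar methyltransferase gene Fbl, -0.63 for Slc7a5, and -0.19 and -0.37 for the translation factor genes Eif5a and Eif4a1. A match of these letters is a description of the window and not a measured binding site.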

How the data were processed

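RNA-seq of 6 libraries was analysed. The authors used Bowtie with the mm9 genome and deposited, per RefSeq transcript, raw counts of exonic reads and RPKM, in which counts are divided by exon length and library reads. Rows sharing exons count a read more than once, so 1 row per gene (most counts over all files) was used. Symbols came from RefSeq accessions for 25353 of 26073 rows, and 720 without a symbol were kept under their accession. Total counts were 25467427 to 31337313 per library. Following the authors, hairpin RPKM values were averaged before the log2 ratio to GFP over genes with an RPKM of at least 1 there, without a pseudocount. Counts were tested with edgeR 4.0.16 (TMM, quasi-likelihood, Benjamini-Hochberg, at least 10 counts in 2 libraries), which leaves 2 residual degrees of freedom, in R 4.3.3. P-values measure the spread between these libraries. On simulated counts with known changes, the share of false calls was above the threshold in most draws of every comparison, so adjusted p-values near it are too small. DESeq2 1.42.0, other scalings, filters and leaving out each hairpin were alternatives. Exact intervals (95%) used scipy 1.17.1 and Python 3.11.15. Hairpin pairs differed by more than sampling noise (chi-square per degree of freedom 7.49 and 5.60). Windows were read from the NCBI build 37 genome, and no row lay beyond its chromosome end.

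The members and gene lists were chosen with earlier results of these data known. The genes named were the members, the other MAX and MLX factors, the knockdown targets, list genes called in SMC1 against condensin or SMC2 against CAPH2 or among the 3 largest SMC1 changes of a list (at least 50 counts in GFP), and the 5 nearest profiles of Myc and of Mycn. Nop58, Mphosph10, Ldha, Esrrb, Cdkn1b and Gadd45a were named with their values seen. The values of 1 such gene are not reported here.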

Additional observations from a re-analysis of the deposited data

Results flagged for a closer look

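The effects of SMC1 and of the condensin hairpins differed for 4 members in the edgeR test of the difference itself, where the GFP library cancels. The log2 difference was 0.66 for Mycl, -0.44 for Mycn, -0.43 for Max and -0.73 for Mxi1 (adjusted p = 0.000349, 0.00376, 0.00232 and 0.000814). With ERCC scaling the differences were 1.08, -0.020, -0.014 and -0.30 in that order, and none was called. Mycl was higher in 1 of 1 SMC1 library than in all 4 condensin libraries, and Mycn, Max and Mxi1 were lower. Of all genes tested 43.4% were called in this test (20.5% lower and 22.9% higher). The groups hold too few samples each to look for a sample that stands apart.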

How the results depend on the processing

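Myc stayed higher and Mxi1 lower than GFP with CAPH2 under every alternative. Counts of genes called changed with the scaling, the filter, the fold and the libraries used, and the cause was not tested. By fold of RPKM, the genes past 1.5 numbered 4061, 884 and 757 for SMC1, CAPH2 and SMC2 against GFP (members 3, 1 and 1). They became 8923, 2321 and 5966 with ERCC scaling (members 5, 3 and 4), where the share of lower calls went from 53.7%, 56.6% and 62.1% to 6.56%, 6.03% and 0.687%. With at least 1 count in both libraries they were 6907, 2576 and 2377 (lower 42.2%, 40.9% and 42.6%), with an RPKM of at least 5 they were 2472, 365 and 316, and with a fold of 2 they were 1842, 133 and 92 (members 1, 0 and 0). A pseudocount of 1 RPKM gave 450 with CAPH2 and 347 with SMC2. Leaving out a CAPH2 hairpin gave 620 (replicate 1) to 1408 genes (replicate 2) and 1 to 2 members.

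By edgeR, CAPH2 against GFP went from 1213 genes and 2 members to 5 and 0 with ERCC scaling, 2094 and 4 without the count filter, 770 genes with DESeq2, and 5 (without SMC2 replicate 1) to 3546 genes (without CAPH2 replicate 2) and 0 to 5 members on leaving out a library. SMC2 against GFP went from 1015 and 2 to 0 and 0 with ERCC scaling (735 genes at an unadjusted p under 0.05), 1779 and 4 without the filter, and 1 (without SMC2 replicate 1) to 3069 genes (without CAPH2 replicate 1) and 0 to 5 members on leaving out a library. It was 115 without SMC2 replicate 2 and 3052 without CAPH2 replicate 2. SMC1 against condensin went from 6444 and 4 to 1420 and 0 with ERCC scaling, which put lower calls at 10.4% instead of 47.3%. SMC2 against CAPH2 went from 3 to 1 with DESeq2 size factors, 7 with the DESeq2 test, 8 without the filter, 1 with all RefSeq rows, and 1 (without SMC2 replicate 2) to 331 (without CAPH2 replicate 2) on leaving out a library. Depth limits Mxd1 most, with 171 to 255 counts.

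The hairpin numbers in the labels are shared, but nothing ties them, and the correlation of same-numbered deviations was 0.046 over 14651 genes and 2 pairs. With the number as a replicate block the calls were 3620 genes and 5 members for CAPH2 against GFP, 3208 and 5 for SMC2 against GFP, and 61 genes for SMC2 against CAPH2, and the log2 values that changed sign were 0.0089 for Mxd1 (SMC2 against GFP), and -0.088 for Myc and -0.013 for Mxd1 (SMC1 against condensin).

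Among the members, a change of sign touched a called value only for Mxi1 with SMC2 against GFP, at 0.12 with ERCC scaling. The other values with ERCC scaling were 0.25 for Mycl (CAPH2 against GFP), 0.51 for Mycl, 0.57 for Mxd1, 0.24 for Mxd3 and 0.28 for Mnt (SMC2 against GFP), 0.20 for Mxd3, 0.31 for Mnt and 0.29 for Mga (SMC1 against condensin), and 0.13 for Myc, 0.26 for Mycn and 0.26 for Mycl (SMC2 against CAPH2). Mxd1 was at -0.0039 in SMC1 against condensin without the filter. On leaving out a library, in CAPH2 against GFP Mycn ranged from -0.012 to 0.044 and Mycl from -0.15 to 0.0064, in SMC2 against GFP Mycn from -0.10 to 0.12 and Mxd1 from -0.060 to 0.019, and in SMC1 against condensin Myc from -0.035 to 0.18 and Mxd1 from -0.0067 to 0.023. In SMC2 against CAPH2 Myc ranged from -0.29 to 0.14, Mycn from -0.11 to 0.099, Mycl from -0.088 to 0.051, Mxd3 from -0.14 to 0.20, Mxi1 from -0.040 to 0.19 and Mnt from -0.11 to 0.20.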
